A study of Homo sapiens with 9 samples.

Results

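The genes described here are 34 well-known transcriptional targets of wild-type p53, taken by symbol from a count table of 58051 genes, and 31 of them had enough reads to be compared among the 14513 genes tested. They were read in A431, a human squamous (epidermoid) carcinoma line known to carry mutant and no wild-type p53, so the canonical activator of these genes was absent from every group. Parental cells, called A431 parental (mutp53), were unedited. Ctrl (mutp53) cells had received a GFP CRISPR construct with an empty vector and kept mutant p53, and p53 KO cells had received a GFP CRISPR construct against p53. Each group had 3 poly(A) RNA-Seq libraries, made from untreated cells collected 48 h after they had settled in plates. The cultures were started from single colonies, and no source says whether the 3 libraries of a group were separate cultures, so p-values cover only the spread between these libraries, and the edit cannot be told apart from other differences between the lines.

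p53 is a transcription factor that binds DNA as a tetramer and switches on genes for cell cycle arrest, apoptosis, DNA repair and metabolism when DNA is damaged. Most cancer mutations in p53 lie in its DNA-binding domain and weaken the binding to these genes, while the mutant protein often builds up in the cell. Many of the same genes also respond to other factors, such as the p53 relatives p63 and p73, or ATF4, the transcription factor of the integrated stress response. In A431 cells, comparing p53 KO with parental and Ctrl cells therefore asks how the RNA of these genes differs when mutant p53 is removed.

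The p53 response element is a pair of adjacent 10-base units around a fixed core, and it reads alike on both strands. Within 5 kb of the main start site, an exact 20-base element with no spacer was found at 2 of the 34 genes, ZMAT3 and PLK2, and at 0.132% of 14397 tested genes with a known start. Allowing up to 1 mismatch outside the core, 14.7% of the 34 genes and 0.82% of the tested genes had an element. Allowing up to 2 mismatches, the shares were 41.2% (14 genes) and 4.99%, and 12 of these 14 genes were among the 31 tested. Elements of 7 genes that are described with their values below are printed from the GRCh38 genome, for CCNG1 the better matching of its 2. They are in the direction of the gene, 5′ to 3′, with the element in capitals. They were found by this match alone.
ZMAT3: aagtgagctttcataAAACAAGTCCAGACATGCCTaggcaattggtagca
PLK2: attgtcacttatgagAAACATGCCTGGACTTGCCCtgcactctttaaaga
GADD45A: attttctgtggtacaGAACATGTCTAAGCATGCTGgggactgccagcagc
CCNG1: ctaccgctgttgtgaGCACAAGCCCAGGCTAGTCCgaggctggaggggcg
PMAIP1: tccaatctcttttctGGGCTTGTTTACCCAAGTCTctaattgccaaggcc
CDKN1A: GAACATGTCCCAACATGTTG
FAS: GGACAAGCCCTGACAAGCCA
The ZMAT3 element lay in an intron on the minus strand at chr3:179070188-179070207, 1612 bases downstream of the start, and the PLK2 element lay upstream of the gene on the minus strand at chr5:58462274-58462293. The GADD45A element, with 1 mismatch, lay in an intron at chr1:67686775-67686794, and the CCNG1 element shown, also with 1 mismatch, lay in an intron at chr5:163437926-163437945. The others had 2 mismatches and lay on the plus strand. That of PMAIP1 (chr18:59899549-59899568) was upstream of the gene, that of FAS (chr10:88991309-88991328) was in an annotated exon, and that of CDKN1A (chr6:36676449-36676468) was at base -2256 from the main start, across the outermost annotated start of the gene. A match describes these letters only. It does not show that p53 was bound, and genes without a match may carry elements that differ more or lie farther away.

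Library totals ranged from 19783778 to 29840452 counts, which limits counting error only. The squamous markers EGFR, KRT5, KRT17, TP63, DSG3 and SFN were read in all libraries, whereas KRT14 had 0 to 13 counts. The fibroblast marker DCN and the leukocyte marker PTPRC were at 0 in all 9 libraries, and COL1A1 had 47 to 114 counts. Ctrl replicate 1 stood apart. Its genes deviated from the group mean by a median of 0.18 on the log2 scale, against 0.05 to 0.13 in the other libraries, and values without it are given where they differ. RNA came from whole cultures, so fewer cells with a transcript and less transcript per cell cannot be told apart.

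The 34 genes did not move as a block in p53 KO cells. Death receptor genes and the pro-apoptotic gene PMAIP1 were higher in p53 KO cells than in both controls, as was CDKN1A, while GADD45A, ZMAT3 and CYFIP2 were lower than in both. Against parental cells, 7 of the 31 genes tested increased and 5 decreased at an adjusted p of at most 0.05 (quasi-likelihood test in edgeR, Benjamini-Hochberg adjusted over all genes tested, as for all adjusted p below), together 38.7%, where 18.1% of all genes tested were called (9.77% increased and 8.36% decreased). Against Ctrl cells, again 7 increased and 5 decreased, 38.7% beside a background of 29.2% (15% increased and 14.2% decreased). The median log2 fold change of the 31 genes was -0.02 against parental and -0.09 against Ctrl cells, beside 0.01 over all genes in both comparisons. With the additional limit of an absolute log2 fold change above 1.5, only CYFIP2 was called against parental cells (background 1.95%), and CYFIP2 and PMAIP1 against Ctrl cells (background 3.29%). CYFIP2 is among the decreased genes, although it passed the filter on low counts only through the control groups. These comparisons share the p53 KO libraries, so they are not independent.

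**Figure D1:**
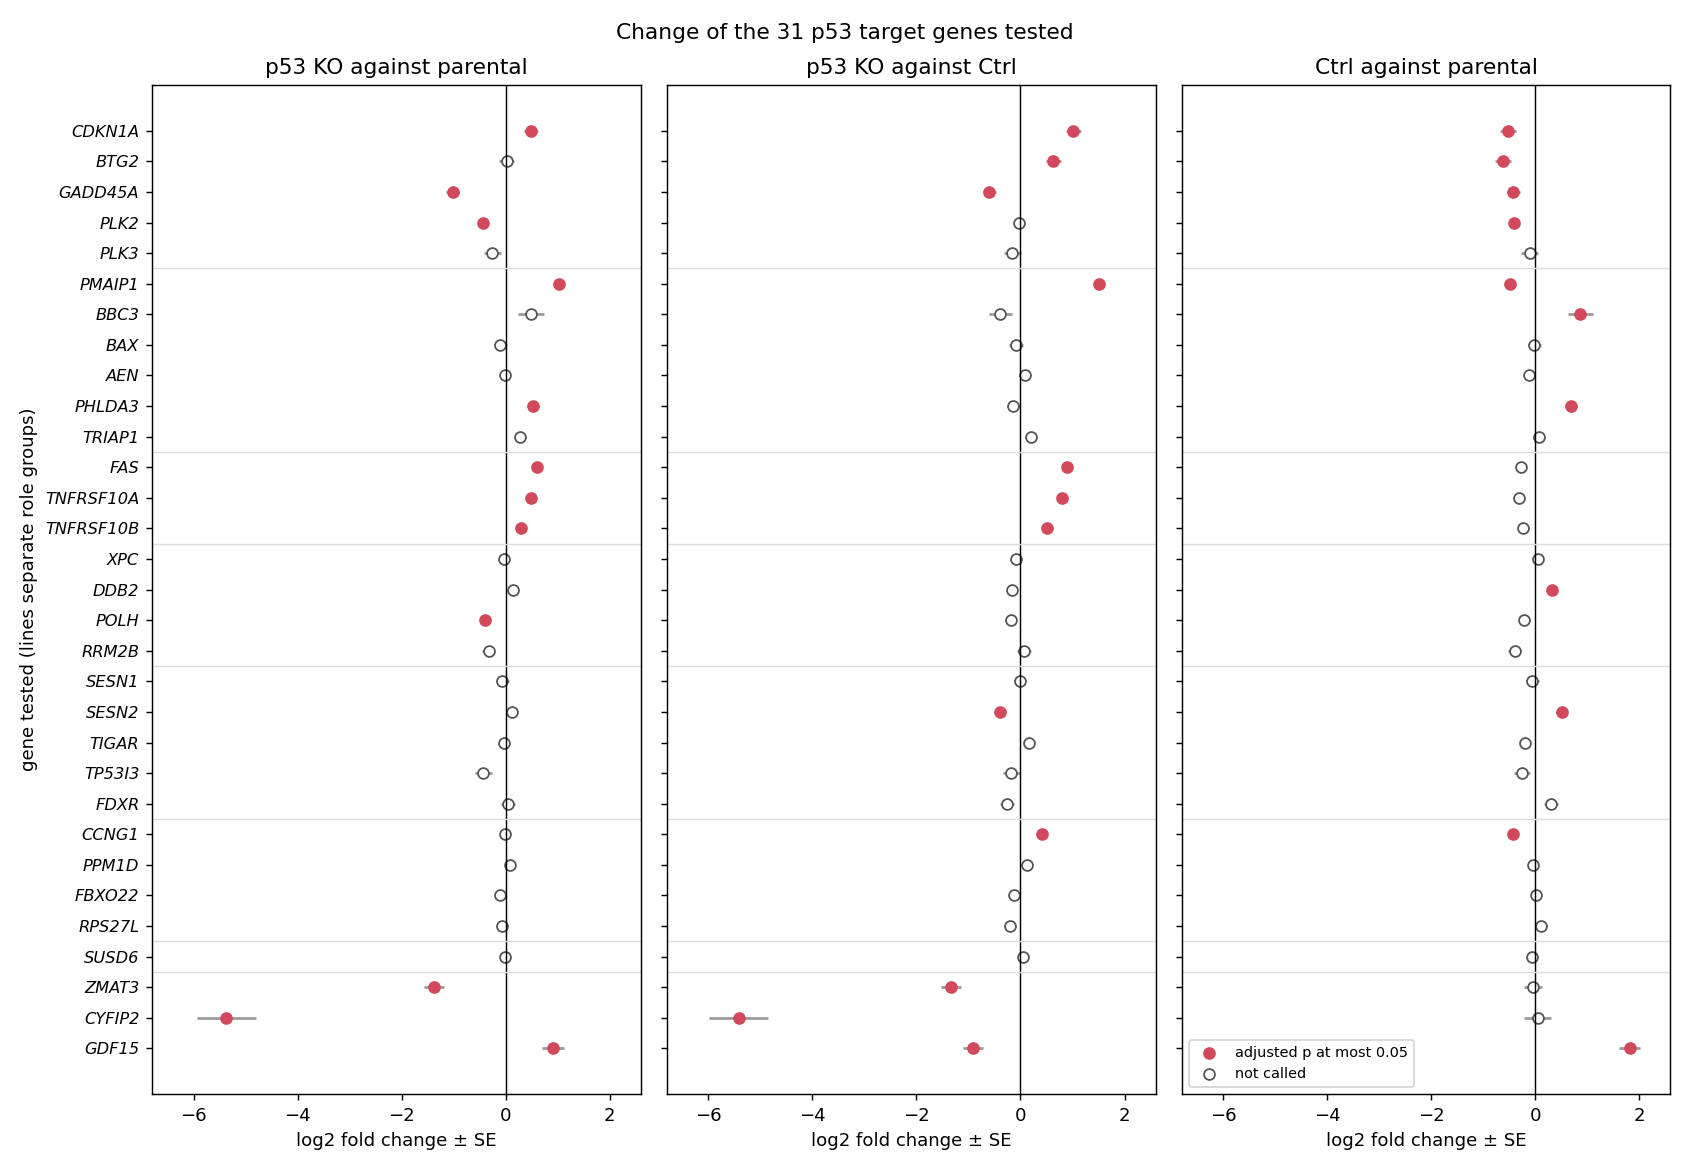
Log2 fold change with its SE (x axis) of the 31 p53 target genes tested (y axis, grouped by role from arrest at the top to RNA binding, actin and secreted factors at the bottom) in each comparison, with filled points for an adjusted p of at most 0.05. Of the genes, 12, 12 and 11 were called in the left, middle and right panel, and called genes lie on both sides of 0 in each panel.

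Called as increased against both controls were 5 genes, CDKN1A, PMAIP1, FAS, TNFRSF10A and TNFRSF10B, beside 6.46% of all genes tested. Called as decreased against both were 3, GADD45A, ZMAT3 and CYFIP2, beside 5.25%. Of these, CYFIP2 passed the filter on low counts only through the control groups. Its place in this count, and among the genes below all controls, is therefore not independent of the filter. In each of the 5 increased genes all p53 KO libraries lay above all 6 control libraries, which was so for 11.9% of all genes. In the 3 decreased genes and in FBXO22 they lay below all 6, which was so for 10.1%. FBXO22, the substrate receptor of a ubiquitin ligase that acts on p53, was at 39.5, 40.2 and 37.6 CPM (counts scaled to the same library size) in p53 KO libraries and between 40.5 and 45.3 CPM in control libraries, and neither comparison called it.

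**Figure D2:**
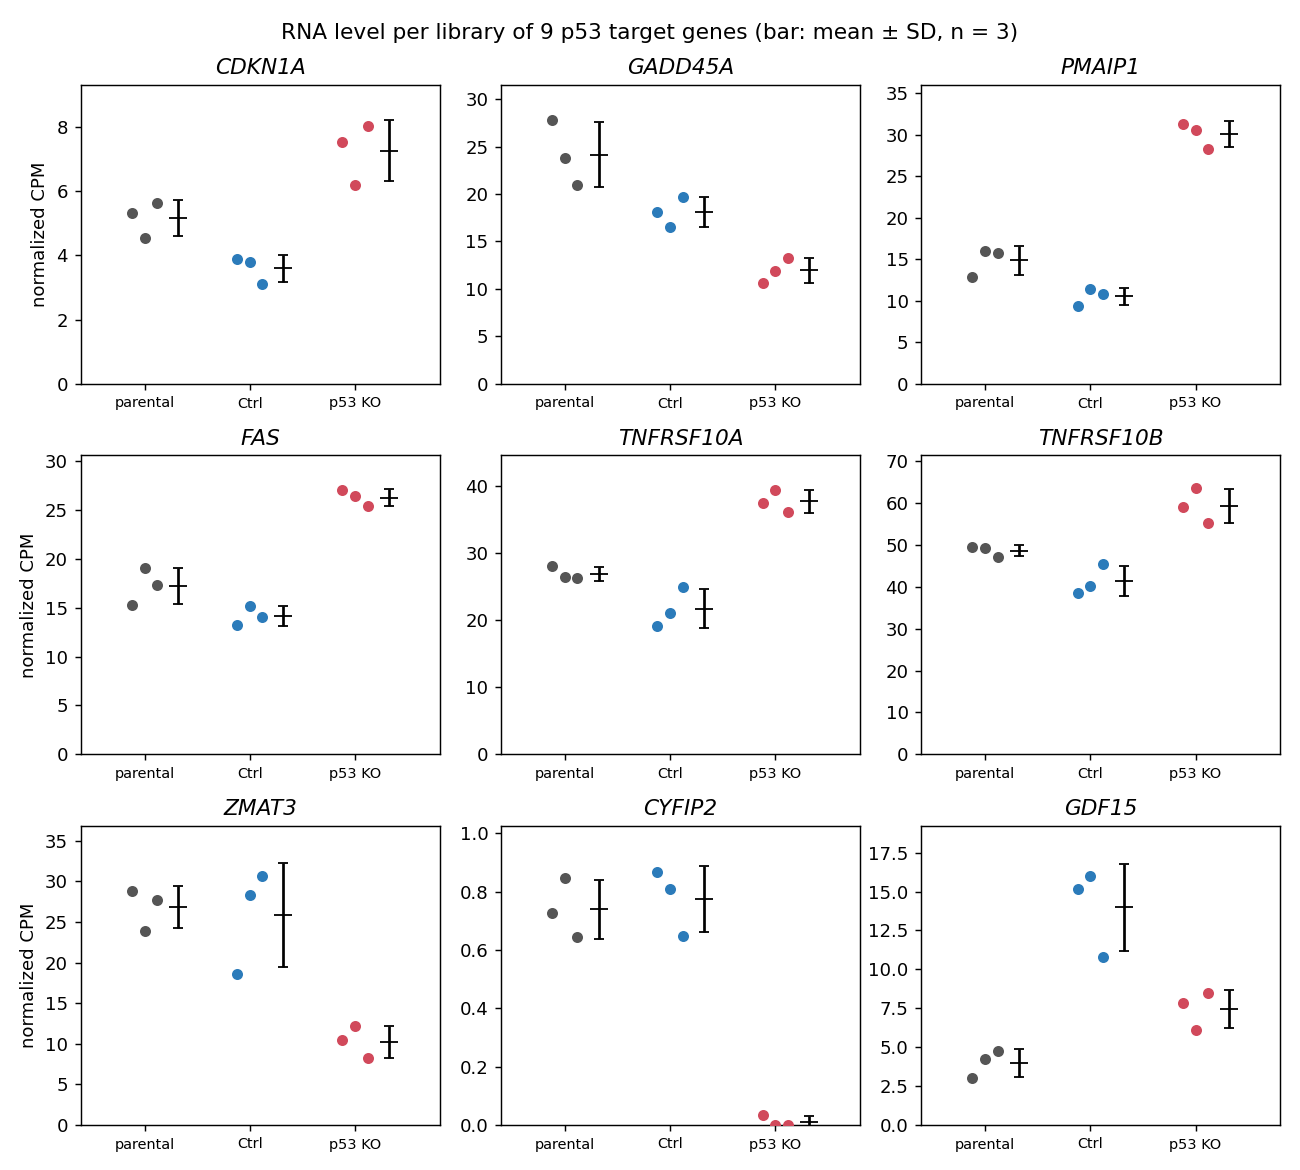
Normalized CPM (y axis, from 0) of 9 p53 target genes in each parental, Ctrl and p53 KO library (points), with the mean and SD of the 3 libraries beside them. The p53 KO libraries lie above all control libraries for CDKN1A, PMAIP1, FAS, TNFRSF10A and TNFRSF10B, below them for GADD45A, ZMAT3 and CYFIP2, and between the control groups for GDF15.

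The death receptors were the only role group in which each gene tested was higher in p53 KO cells against both controls. FAS binds FAS ligand and starts caspase activation at the cell surface, and TNFRSF10A and TNFRSF10B do so for the ligand TRAIL. FAS (ENSG00000026103, chr10:88953813-89029605) was at 15.3, 19 and 17.3 CPM in parental, 13.2, 15.2 and 14.1 in Ctrl, and 27.0, 26.4 and 25.4 in p53 KO libraries. The p53 KO libraries were close together and well above both control groups, which nearly touched but did not overlap. The log2 fold change was 0.61 (SE 0.10, adjusted p = 0.00144, edgeR) against parental and 0.89 (SE 0.10, adjusted p = 6.78e-05) against Ctrl cells. TNFRSF10A (ENSG00000104689, chr8:23190452-23225102) was at 28.1, 26.4 and 26.3 CPM in parental, 19.2, 21.1 and 24.9 in Ctrl, and 37.5, 39.4 and 36.1 in p53 KO libraries. No p53 KO library overlapped a control library, and every Ctrl library was below every parental one. This gave a log2 fold change of 0.48 (SE 0.10, adjusted p = 0.00593) against parental and 0.79 (SE 0.10, adjusted p = 0.000151) against Ctrl cells. TNFRSF10B (ENSG00000120889, chr8:23020133-23069031) was at 49.4, 49.4 and 47.1 CPM in parental, 38.7, 40.2 and 45.4 in Ctrl, and 59.0, 63.6 and 55.4 in p53 KO libraries. Its groups were ordered in the same way, with a smaller step to the p53 KO libraries. On the log2 scale TNFRSF10B increased by 0.29 (SE 0.08, adjusted p = 0.0378) against parental and by 0.52 (SE 0.09, adjusted p = 0.000919) against Ctrl cells. Against parental cells this call was lost when any parental library, p53 KO replicate 1 or 2, or Ctrl replicate 2 was left out, with adjusted p up to 0.146, and without a filter on low counts (adjusted p = 0.0598). The last gene of the group, EDA2R, a receptor for an ectodysplasin isoform, had 1 count in p53 KO replicate 1 and 0 counts elsewhere and was not tested.

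The chromosomal neighbours of these receptors moved with them. Among 67 genes with a mean of at least 4 CPM within 10 Mb of TNFRSF10A and TNFRSF10B on chromosome 8, p53 KO cells had a median log2 fold change of 0.49 against parental and 0.48 against Ctrl cells. Relative to that median, TNFRSF10A was at -0.01 and TNFRSF10B at -0.20 against parental cells, and they were at 0.32 and 0.04 against Ctrl cells. Among 82 neighbours of FAS on chromosome 10 the median was 0.44 and 0.55, which left FAS 0.17 and 0.34 above it. The part of these neighbourhoods in the higher receptor RNA was not tested. Genes that overlap the exons of TNFRSF10A on the opposite strand cover 16.7% of their length, and as the strand setting of the counting is not given, reads of both cannot be told apart there.

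**Figure D3:**
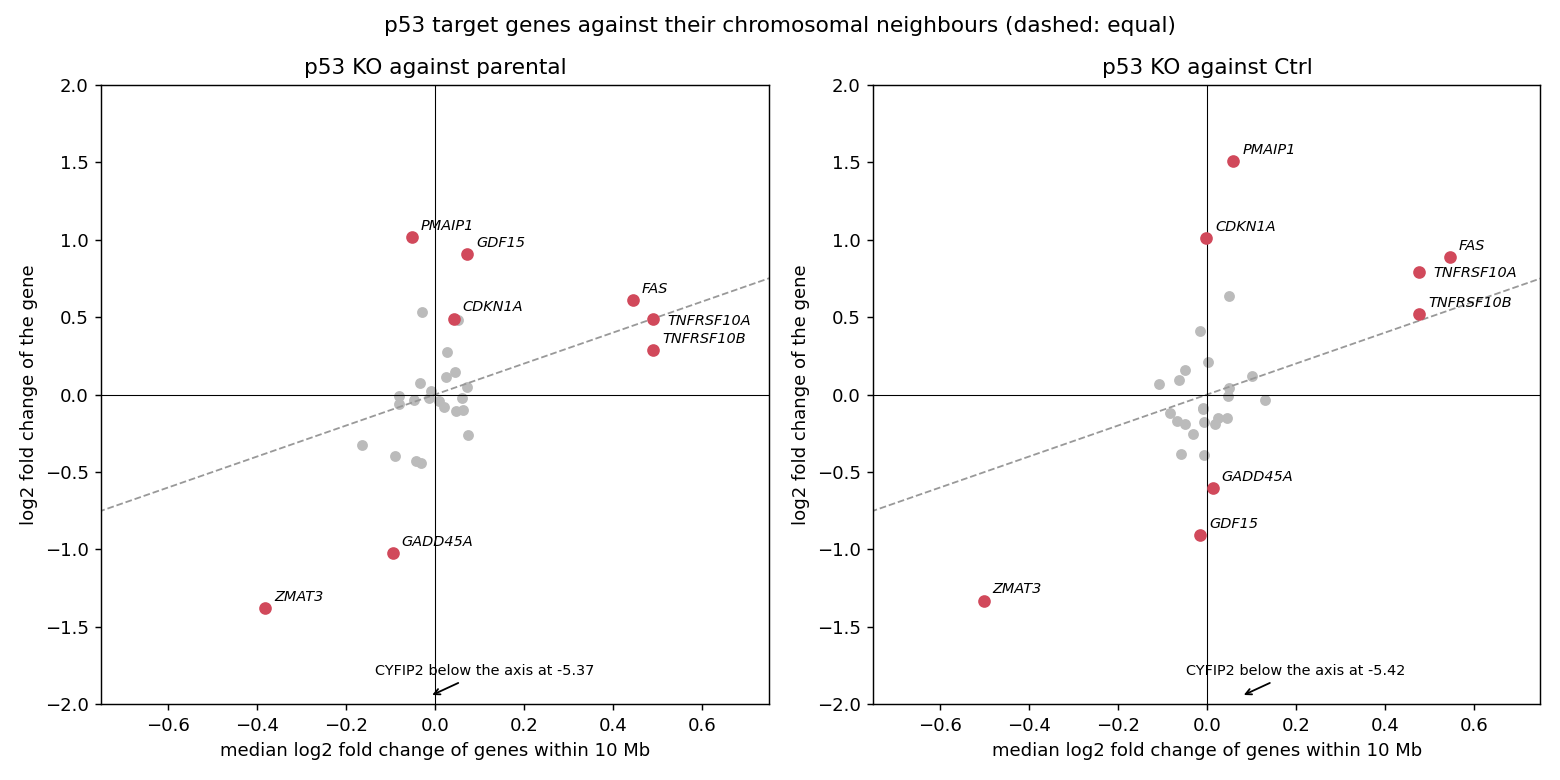
Log2 fold change of each p53 target gene tested (y axis) against the median log2 fold change of the genes within 10 Mb of it (x axis), for p53 KO against parental cells (left) and against Ctrl cells (right), with CYFIP2 below the axis. Most genes have neighbours with a median near 0, whereas FAS, TNFRSF10A and TNFRSF10B sit at medians of 0.44 to 0.55 and ZMAT3 at -0.38 and -0.50.

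Among the 6 genes of mitochondrial and nuclear apoptosis, PMAIP1 increased against both controls. PMAIP1, also called NOXA, is a pro-apoptotic protein that neutralizes the survival factor MCL1. The gene (ENSG00000141682, chr18:59899996-59904305) was at 12.9, 16 and 15.7 CPM in parental, 9.43, 11.4 and 10.9 in Ctrl, and 31.3, 30.6 and 28.3 in p53 KO libraries. All p53 KO libraries were far above the highest control library, and every Ctrl library was below every parental one. PMAIP1 increased by 1.02 on the log2 scale (SE 0.11, adjusted p = 0.000126) against parental and by 1.51 (SE 0.11, adjusted p = 3.45e-06) against Ctrl cells. Its 36 neighbours within 10 Mb had medians of -0.05 and 0.06, and 35 of them had a lower log2 fold change than PMAIP1 in each comparison. PHLDA3, a repressor of the survival kinase AKT, increased against parental cells (log2 fold change 0.53, SE 0.11, adjusted p = 0.00841) from 32.3 ± 0.806 to 46.7 ± 5.62 CPM (SD, n = 3). It was higher still in Ctrl cells, at 51.9 ± 7.42 CPM, and p53 KO against Ctrl was not called (log2 fold change -0.15, 95% interval -0.37 to 0.07). PHLDA3 shares 18.4% of its exon length with another gene on the same strand, so strand cannot separate reads there. BBC3, which encodes PUMA, was low, at 1.30 ± 0.333 CPM in parental cells, 2.45 ± 0.633 in Ctrl cells and 1.86 ± 0.253 after p53 KO, and neither p53 KO comparison called it. BAX, the pore-forming effector of mitochondrial apoptosis, had log2 fold changes of -0.10 (95% interval -0.36 to 0.15) and -0.09 (-0.34 to 0.17). It was at 59.2 CPM in Ctrl replicate 1 and at 40.8 and 43.5 in Ctrl replicates 2 and 3, and its change without replicate 1 was not determined. AEN, a nuclease of apoptotic cells, and TRIAP1, an inhibitor of apoptosis, were also not called.

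Of the 5 genes of arrest and growth control, CDKN1A increased and GADD45A decreased against both controls. CDKN1A encodes p21, the inhibitor of cyclin-dependent kinases through which wild-type p53 stops the cell cycle. The gene (ENSG00000124762, chr6:36676460-36687337) was at 5.32, 4.54 and 5.63 CPM in parental, 3.88, 3.79 and 3.13 in Ctrl, and 7.55, 6.20 and 8.04 in p53 KO libraries. The groups did not overlap, with Ctrl lowest, parental between and p53 KO highest. The log2 fold change was 0.49 (SE 0.14, adjusted p = 0.0313) against parental and 1.01 (SE 0.14, adjusted p = 0.000357) against Ctrl cells. The call against parental cells was lost without any of the parental libraries and without p53 KO replicate 1 or 3 (adjusted p up to 0.131). GADD45A, a stress sensor that binds p21 and cyclin-dependent kinase, moved the other way. The gene (ENSG00000116717, chr1:67685201-67688334) was at 27.8, 23.8 and 20.9 CPM in parental, 18.2, 16.5 and 19.6 in Ctrl, and 10.7, 11.9 and 13.3 in p53 KO libraries. Here too the groups did not overlap, with parental highest and p53 KO lowest. GADD45A had log2 fold changes of -1.02 (SE 0.13, adjusted p = 0.00034) against parental and -0.60 (SE 0.13, adjusted p = 0.00428) against Ctrl cells. None of its 43 neighbours within 10 Mb had a lower log2 fold change against parental cells, and 2 had against Ctrl cells.

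PLK2 and PLK3 are polo-like kinases that respond to stress, and BTG2 is an antiproliferative cofactor of RNA decay. PLK2 decreased against parental cells (log2 fold change -0.44, SE 0.09, adjusted p = 0.00671), from 90.7 ± 5.99 to 66.7 ± 4.15 CPM (SD, n = 3). It was at 68.2 ± 7.06 CPM in Ctrl cells, and p53 KO against Ctrl was not called (log2 fold change -0.03, 95% interval -0.22 to 0.15). BTG2 was instead near its parental level in p53 KO cells. It increased against Ctrl cells (log2 fold change 0.63, SE 0.15, adjusted p = 0.00847) and was at 4.84 ± 0.484 CPM in parental cells, 3.19 ± 0.392 in Ctrl cells and 4.94 ± 0.668 after p53 KO. PLK3 was not called in either comparison.

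Of the remaining called genes, ZMAT3 and CYFIP2 were lower in p53 KO cells than in both controls, and GDF15 lay between the controls. ZMAT3 is an RNA-binding zinc finger protein that regulates splicing and RNA stability. The gene (ENSG00000172667, chr3:178960121-179072215) was at 28.8, 23.9 and 27.7 CPM in parental, 18.6, 28.4 and 30.7 in Ctrl, and 10.4, 12.2 and 8.24 in p53 KO libraries. The control groups overlapped, and all p53 KO libraries were below the lowest control, Ctrl replicate 1. The log2 fold change was -1.38 (SE 0.19, adjusted p = 0.000604) against parental and -1.33 (SE 0.19, adjusted p = 0.00035) against Ctrl cells, and -1.51 against Ctrl cells without Ctrl replicate 1. The 71 neighbours within 10 Mb had a median of -0.38 against parental and -0.50 against Ctrl cells. None of them was lower than ZMAT3 in either comparison, and relative to the median ZMAT3 was at -1.0 and -0.83. The part of the neighbourhood in its lower RNA was not tested.

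CYFIP2 is a subunit of the WAVE complex, which controls branching of actin. The gene (ENSG00000055163, chr5:157266079-157395595) was read at a low level, with 19, 22 and 14 counts in parental, 17, 23 and 17 in Ctrl, and 1, 0 and 0 in p53 KO libraries. The RNA was near the limit of detection in each p53 KO library and present in each control library. The level over the group was 56.8 times higher in parental than in p53 KO cells, with an exact 95% interval for counting error of 9.78 to 2280, and 58.5 times higher in Ctrl cells, with an interval of 10.1 to 2350. CYFIP2 passed the filter on low counts only through the control groups, so that its calls in edgeR (adjusted p = 0.000138 and 4.58e-05) are not independent of the filter. When at least 10 counts were required in every library it was not tested, and 4 genes decreased in each p53 KO comparison. The fitted log2 fold changes of -5.37 and -5.42 depend on how a fit treats counts near 0. The 56 neighbours of CYFIP2 had medians of -0.01 and 0.08.

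GDF15 encodes a secreted stress cytokine of the TGF-beta family and is a target of both p53 and ATF4. The gene (ENSG00000130513, chr19:18374731-18389176) was at 2.98, 4.23 and 4.75 CPM in parental, 15.1, 16 and 10.8 in Ctrl, and 7.82, 6.09 and 8.48 in p53 KO libraries. The groups did not overlap, and the p53 KO libraries lay between the controls. GDF15 thus increased against parental cells (log2 fold change 0.91, SE 0.21, adjusted p = 0.0124) and decreased against Ctrl cells (-0.91, SE 0.19, adjusted p = 0.00398). Between the control lines it had the largest change of the 31 genes, a log2 fold change of 1.82 for Ctrl against parental cells (SE 0.20, adjusted p = 0.000176). Without parental replicate 1 the adjusted p for p53 KO against parental cells was 0.0582.

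Of the 4 repair genes, 1 was called against parental cells (25% beside 18.1% of all genes). Among XPC and DDB2, which recognize lesions for nucleotide excision repair, POLH, a polymerase that copies past lesions, and RRM2B, a ribonucleotide reductase subunit, only POLH was called. It decreased against parental cells (log2 fold change -0.40, SE 0.10, adjusted p = 0.021), from 49 ± 1.27 to 37.2 ± 2.86 CPM (SD, n = 3), and was at 42.4 ± 5.54 CPM in Ctrl cells. XPC was at 85.2 ± 1.06, 88.7 ± 3.67 and 83.0 ± 1.09 CPM in parental, Ctrl and p53 KO cells, and the 95% intervals of the change in p53 KO, on the log2 scale, ran from -0.16 to 0.09 and from -0.22 to 0.03. XPC shares 24.6% of its exon length with genes on the opposite strand. DDB2 and RRM2B were not called in a p53 KO comparison.

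Among the metabolic and redox genes, SESN2 decreased against Ctrl cells (log2 fold change -0.39, SE 0.10, adjusted p = 0.0158). SESN2, a sestrin that restrains the growth kinase mTORC1, was at 20.1 ± 0.168 CPM in parental cells, 28.6 ± 3.06 in Ctrl cells and 21.8 ± 2.33 after p53 KO. Its relative SESN1, the glycolytic regulator TIGAR, the quinone oxidoreductase TP53I3 and the ferredoxin reductase FDXR were not called in either comparison. TP53I3 was the farthest of these from 0 against parental cells, at -0.43 (SE 0.16, adjusted p = 0.0927).

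Of the feedback genes, CCNG1, which encodes cyclin G1 and guides a phosphatase to MDM2, increased against Ctrl cells (log2 fold change 0.41, SE 0.09, adjusted p = 0.00478). It was at 101 ± 11.2 CPM in parental cells, 75.3 ± 4.36 in Ctrl cells and 99.99 ± 2.90 after p53 KO (SD, n = 3). PPM1D, a phosphatase that inactivates p53, FBXO22 and the ribosomal protein relative RPS27L were not called. Over all roles, 19 genes were not called against parental cells, with log2 fold changes from -0.43 to 0.48, and 19 were not called against Ctrl cells, with values from -0.39 to 0.21.

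Of the 3 genes of autophagy and organelle quality, SUSD6 was tested and not called, with log2 fold changes of -0.01 and 0.04. TP53INP1, which takes part in autophagy and p53 phosphorylation, had 7, 9 and 6 counts in parental, 5, 19 and 7 in Ctrl, and 1, 0 and 1 in p53 KO libraries. These counts were too low for the test, and every p53 KO library was below every control library. The level over the group was 11.4 times higher in parental than in p53 KO cells (exact 95% interval for counting error 2.79 to 99.7) and 15.9 times higher in Ctrl than in p53 KO cells (4.05 to 137). SPATA18, a factor of mitochondrial quality control, had 0 counts in all 9 libraries.

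The lines that both keep mutant p53 also differed in these genes. Against parental cells, 5 of the 31 genes increased and 6 decreased in Ctrl, together 35.5%, where 20.3% of all genes tested were called (10.6% increased and 9.69% decreased), with a median log2 fold change of -0.05. Increased were GDF15, BBC3 (log2 fold change 0.87, SE 0.24, adjusted p = 0.0285), PHLDA3 (0.68, SE 0.11, adjusted p = 0.00233), SESN2 (0.51, SE 0.10, adjusted p = 0.00762) and DDB2 (0.31, SE 0.09, adjusted p = 0.0284). Decreased were CDKN1A (-0.52, SE 0.15, adjusted p = 0.0324), BTG2 (-0.61, SE 0.15, adjusted p = 0.0175), GADD45A (-0.42, SE 0.12, adjusted p = 0.0356), PLK2 (-0.41, SE 0.09, adjusted p = 0.0116), PMAIP1 (-0.49, SE 0.11, adjusted p = 0.0122) and CCNG1 (-0.43, SE 0.09, adjusted p = 0.00712). So 4 of the 5 arrest genes were lower in Ctrl than in parental cells. Leaving out single libraries ended the call of CDKN1A (parental replicate 1 or 3, Ctrl replicate 2 or 3, adjusted p up to 0.107), of GADD45A (parental replicate 1 or 2, Ctrl replicate 2 or p53 KO replicate 2, up to 0.147) and of PMAIP1 (parental replicate 2 or 3, up to 0.0578). GDF15 kept its call (up to 0.00142). The other genes called here were not followed one by one. In some of these fits only 3 genes increased or 2 decreased, so calls among those others were lost too. Of the death receptors none was called, with log2 fold changes of -0.28 for FAS, -0.31 for TNFRSF10A (adjusted p = 0.0506) and -0.23 for TNFRSF10B. All 3 had an unadjusted p under 0.05 in edgeR, and DESeq2 called TNFRSF10A (adjusted p = 0.0324). With the limit of 1.5 on the log2 fold change only GDF15 was called, beside 1.94% of all genes.

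Across genes, levels can be compared only per length. On the scale of CPM per kb of annotated exon, the highest mean levels in parental cells were those of CCNG1 (32.8), PLK2 (19.5), BAX (18.7) and XPC (18.4). Over the main transcript alone the order was BAX (60.8), CCNG1 (41.5), PLK2 (32.5) and DDB2 (24.98). CDKN1A, at 1.72 CPM per kb, was number 25 of the 34 genes. BBC3 was at 0.41, and CYFIP2 and TP53INP1 were at 0.07 and 0.05. FAS was at 0.587 over all annotated exons and at 4.65 over the main transcript, so its place too depends on the length used. In p53 KO cells the mean level of PMAIP1 was 13.8 CPM per kb, against 6.80 in parental and 4.83 in Ctrl cells.

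The p53 relatives and regulators give the setting of these genes. Of 15 listed, 13 were tested, and 2 of them decreased against parental cells while 11 were not called, 15.4% beside 18.1% of all genes tested. Against Ctrl cells 3 decreased and 1 increased, 30.8% beside 29.2%. The damage kinase gene ATR decreased against both controls, with log2 fold changes of -0.73 (SE 0.19, adjusted p = 0.0213) and -0.57 (SE 0.19, adjusted p = 0.0413). Ctrl replicate 1, at 81.8 CPM of ATR, lay within the p53 KO range of 69.5 to 92.8 CPM. Ctrl replicates 2 and 3 were at 136 and 152 CPM. TP53BP1, a repair factor that binds p53, decreased by 0.29 and 0.24 on the log2 scale (adjusted p = 0.031 and 0.0454), and the checkpoint kinase gene CHEK2 decreased against Ctrl cells (-0.42, SE 0.10, adjusted p = 0.00934). CHEK1, the other checkpoint kinase gene, increased against Ctrl cells (0.27, adjusted p = 0.0264). TP63, the squamous relative of p53, was not called, at 0.13 (SE 0.17) and 0.21 (SE 0.17). MDM2, the ubiquitin ligase of p53 and itself a target, was not called, at -0.12 (SE 0.14) and 0.26 (SE 0.14), with 52.3 CPM in Ctrl replicate 1 and 77.8 to 94.7 CPM in the other libraries. TP73 had 0 to 2 counts in each control library and 19, 6 and 4 counts in the p53 KO libraries, too few for the test.

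Among 49 tested genes of a second list of p53 targets, 9 increased and 3 decreased against parental cells, 24.5% beside 18.1% of all genes tested. Against Ctrl cells 13 increased and 9 decreased, 44.9% beside 29.2%. The medians were 0.05 and 0.02. The antiviral gene TRIM22 increased against both controls, with log2 fold changes of 1.75 (SE 0.20, adjusted p = 0.00022) and 1.39 (SE 0.19, adjusted p = 0.000289). ORAI3, a calcium channel gene, did so with 1.1 and 0.98 (adjusted p = 0.0119 and 0.0124). THBS1, the gene of the matrix protein thrombospondin, increased by 0.57 against parental cells (adjusted p = 0.0425) and by 2.13 against Ctrl cells (adjusted p = 1.11e-05), and was lower in Ctrl than in parental cells (-1.56, adjusted p = 0.000196). GLS2, a mitochondrial glutaminase gene, increased against Ctrl cells (1.15, adjusted p = 0.00926).

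**Figure D4:**
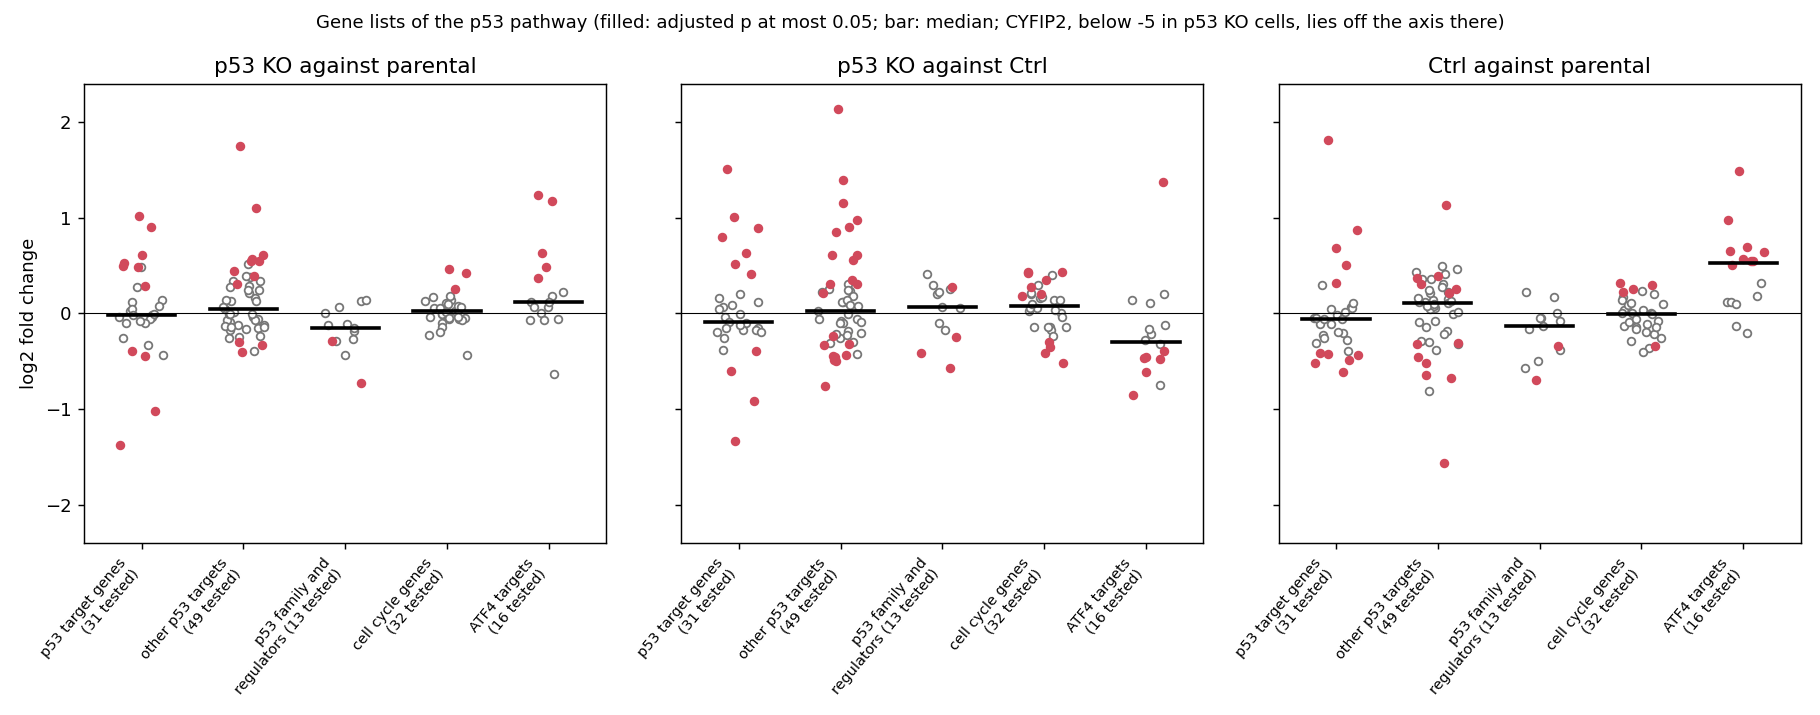
Log2 fold change (y axis) of the p53 target genes and of 4 further gene lists (x axis) in each comparison, with filled points for an adjusted p of at most 0.05 and a bar at the median over the genes tested. The p53 target lists and the cell cycle genes have medians within 0.11 of 0 in each panel, and the ATF4 targets have medians of 0.12, -0.30 and 0.53.

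Of 32 tested cell cycle genes that wild-type p53 represses through p21, 3 increased against parental cells while 29 were not called, 9.38% beside 18.1% of all genes tested. Against Ctrl cells 7 increased and 4 decreased, 34.4% beside 29.2%. CDK1, the mitotic kinase gene, increased by 0.47 and 0.43 (adjusted p = 0.00133 and 0.0011), and the helicase gene MCM7 by 0.42 in both (adjusted p = 0.00541 and 0.00307). The helicase genes MCM5 and MCM2 decreased against Ctrl cells (-0.52 and -0.41, adjusted p = 0.00137 and 0.000538). Among 16 tested targets of ATF4, a list that also holds SESN2, 5 increased against parental cells while 11 were not called, 31.2% beside 18.1% of all genes tested. Against Ctrl cells 1 increased and 6 decreased, 43.8% beside 29.2%. Between the control lines, 9 were higher in Ctrl cells and called and 7 were not called, 56.2% beside 20.3%, with a median log2 fold change of 0.53. The stress factor gene ATF3 increased in p53 KO cells against both controls (1.24 and 1.38, adjusted p = 9.11e-05 and 1.86e-05). DDIT4, an inhibitor of mTORC1, increased against parental cells in both p53 KO (1.18, adjusted p = 0.000115) and Ctrl cells (0.97, adjusted p = 0.000352). CHAC1, which degrades glutathione, increased against parental cells (0.63, adjusted p = 0.00306) and decreased against Ctrl cells (-0.85, adjusted p = 0.000148). CEBPB, a stress-responsive transcription factor gene, increased against parental cells in both p53 KO (0.48, adjusted p = 0.00761) and Ctrl cells (0.69, adjusted p = 0.0011). For CEBPB, p53 KO against Ctrl was not called (-0.21, adjusted p = 0.148). GDF15 and SESN2 were higher in Ctrl than in parental cells and decreased in p53 KO against Ctrl cells, and the part of this list in their values was not tested.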

How the data were processed

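RNA was measured in 3 parental, 3 Ctrl and 3 p53 KO libraries of A431 cells. The authors deposited raw counts per gene, made with the STAR aligner (2.5.1b) on GRCh38 in paired-end mode and featureCounts on an Ensembl annotation. The kit was strand-specific, and the strand setting of the counting is not given in the sources used here. The members and gene lists were chosen with earlier results of these data known, from textbook targets and not by how they moved. The analysis used edgeR 4.0.16 in R 4.3.3. Low genes were removed with filterByExpr (minimum count 10), libraries were normalized by TMM, and all were fitted in 1 quasi-likelihood model of all 9 libraries with Benjamini-Hochberg adjustment over 14513 genes. Calls had an adjusted p of at most 0.05. The authors used DESeq2, which served here as an alternative (1.42.0). On simulated counts edgeR recovered 82% of genes simulated with a log2 fold change of 1 and 97% of those with 2 in p53 KO against parental cells, out of 14513 genes of which 100 had each size. It also made 12 false calls there. Far fewer genes were changed in the simulation than were called in the data, and no simulated library stood apart. These shares therefore need not hold for the real comparisons.

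Values are given for each library for CDKN1A, for members called alike in p53 KO against each control, and for members called with an absolute log2 fold change above 1 in any comparison. From each other list up to 4 called genes with the largest mean absolute change are named, and TP63, TP73 and MDM2 always. The check of the edited gene and some further items are not reported here. FBXO22 and TP53INP1 fall outside this rule for values per library and were picked once their values were known. Positions, exon lengths and start sites come from GENCODE release 44, which holds 14397 of the tested genes, and sequence from the GRCh38 genome. The search for response elements and the values of chromosomal neighbours were added after seeing the data. Equal replicate numbers did not pair libraries across groups, as their deviations from the group means correlated between -0.35 and 0.04. Between unlike numbers the correlations ran from -0.22 to 0.395, the highest for Ctrl replicate 1 with p53 KO replicate 3. Alternatives were DESeq2, its size factors, other filters, a replicate block, fits of only the groups compared, limits on the fold change, and each library left out in turn. No library was left out of the main results. Figures were drawn with matplotlib 3.10.9.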

Additional observations from a re-analysis of the deposited data

Results flagged for a closer look

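Of the 31 genes tested, 4 were called both in p53 KO and in Ctrl against parental cells, with differences from parental cells that themselves differed, tested as p53 KO against Ctrl cells by edgeR. CDKN1A was higher in p53 KO and lower in Ctrl than in parental cells, and the log2 fold changes differed by 1.01. PMAIP1 had the same opposed directions, with a difference of 1.51. GADD45A was lower than in parental cells in both, and lower in p53 KO than in Ctrl cells, with a difference of -0.60. GDF15 was higher than in parental cells in both, and less so in p53 KO cells, with a difference of -0.91. How many of all genes tested met the rule for these 4 genes was not determined, so their number has no background beside it. The 3 comparisons share libraries, and each alone called between 18.1% and 29.2% of all genes tested. Groups of 3 libraries were not searched for single libraries far from the rest.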

How the results depend on the processing

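With an absolute log2 fold change above 1, the increased and decreased genes of the 31 numbered 1 and 3 against parental cells, 2 and 2 against Ctrl cells, and 1 and 0 in Ctrl against parental cells. Of all 14513 genes tested, 527, 944 and 607 were called past this limit in the same order. Above 1.5 the genes of the 31 numbered 0 and 1, 1 and 1, and 1 and 0, beside 1.95%, 3.29% and 1.94% of all genes. DESeq2 called 5 cell cycle genes against parental cells in place of 3. Without a filter on low counts, 4 p53 relatives and regulators were called against parental cells and 5 in Ctrl against parental cells, in place of 2 and 2. The replicate block, although numbers did not pair the libraries, left 0, 1 and 0 of these genes in the 3 comparisons in place of 2, 4 and 2, and it left 7 cell cycle genes for p53 KO against Ctrl and 0 for Ctrl against parental cells, in place of 11 and 5. It also left 5 of the 31 genes increased against parental cells in place of 7, and ended the calls of CDKN1A (adjusted p = 0.0621) and TNFRSF10B (adjusted p = 0.101) there. With only the groups compared in the fit, 3 genes increased in Ctrl against parental cells. Leaving out each library in turn gave 4 to 8 increased genes against parental cells, with 4 without parental replicate 1, and 4 to 7 decreased. Against Ctrl cells it gave 7 to 8 and 4 to 6. In Ctrl against parental cells it gave 3 to 6 increased genes, with 3 without any of the parental libraries or Ctrl replicate 2, and 2 to 8 decreased, with 2 without parental replicate 1 and 3 without parental replicate 2 or Ctrl replicate 2. Between 9 and 11 genes lay outside the control range. The shares of all genes tested above and below this range are given in the Results for the main fit only. Apart from the limits on the fold change, no share of all genes is given beside the counts under the alternatives. A change in those counts therefore cannot be told apart from a change over all genes. Relative to the median of their neighbours, a setting chosen after seeing the data, TNFRSF10A (-0.0062) and TNFRSF10B (-0.203) reversed against parental cells. Of the tested log2 fold changes of the named members, 369 kept their side of the threshold over the alternatives. A further 28 lost the call and 5 gained it. The 369 include uncalled changes whose sign turned. ZMAT3 in Ctrl against parental cells, for example, ranged from -0.18 to 0.14 with single libraries left out. The causes were not tested. Depth limits EDA2R and SPATA18, which had 1 and 0 counts in all, and CYFIP2 and TP53INP1, whose p53 KO libraries each held 0 or 1 count.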
